A study of Homo sapiens with 8 samples.

Results

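CA9 and 5 further genes of pH regulation were followed across all 4 groups of an RNA sequencing experiment in MDA-MB-231 cells, an established human line of invasive triple-negative breast carcinoma. The genes were taken by symbol from the deposited table of raw counts: the carbonic anhydrases CA9 and CA12, the lactate and proton transporters SLC16A1 and SLC16A3, their chaperone BSG, and the bicarbonate transporter SLC4A7. All 6 were found among 61228 genes in the table, and 5 were among the 15568 genes with enough counts to be tested. The set was assembled around CA9 because its level fell more with the knockout in gels than in monolayers. All values of CA9, and the difference between the knockout effects of the 2 cultures for every one of the 6 genes, are therefore given as descriptions without a test. The knockout cells had received Cas9 with guide RNAs against ETV1, ETV4 and ETV5, the PEA3 group of ETS transcription factors, and the control cells had received a control guide, all by nucleofection. Each was grown in a gel of collagen I or as a monolayer on plastic, which gave knockout gels, control gels, knockout monolayers and control monolayers, with 2 libraries each. Among the controls, the label of the gels names Cas9 and that of the monolayers does not, and gels but not monolayers were digested with collagenase before lysis, so these differences cannot be told apart from the comparisons that contain them. The labels do not say which of the 2 collagen concentrations in the protocol a gel had, or whether the nucleofected cells were a mixed population or clones. That libraries of 1 group are separate cultures is stated nowhere in the labels, so p-values measure only the spread between these libraries, which may be technical.

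Cells that burn glucose to lactate must export both lactate and protons to keep their interior from turning acid. SLC16A3 encodes MCT4, a lactate and proton cotransporter typical of glycolytic cells, and SLC16A1 encodes MCT1, a relative found in most tissues. BSG encodes basigin, the membrane glycoprotein that brings both transporters to the cell surface. CA9 and CA12 encode carbonic anhydrases anchored in the plasma membrane with their active site outside, where they interconvert carbon dioxide and bicarbonate. SLC4A7 encodes NBCn1, which carries sodium and bicarbonate into the cell and so neutralises acid inside. CA9 is among the genes most strongly induced by low oxygen in tumours, through the hypoxia-inducible factors, which bind a short core motif of the letters ACGTG or GCGTG. SLC16A3 is also known as a target of these factors.

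The promoter windows of CA9, CA12 and SLC16A3, the genes that were lower in knockout gels, and of BSG, which was not, are printed to show where such core letters lie. RefSeq windows on GRCh38.p14, of 250 bases before and 50 after an annotated start, were matched for 5 of the 6 genes by symbol, 11 windows in all. SLC16A3 has 5 windows and BSG has 2, and the window with the ACGTG copies is printed for each. Capitals mark every match, on either strand, to ACGTG, to GCGTG or to CCGGAA, the core of many ETS sites. The CA9 window is chr9:35673678-35673977 on the plus strand, that of CA12 is chr15:63381797-63382096 on the minus strand, that of SLC16A3 is chr17:82228792-82229091 on the plus strand, and that of BSG is chr19:572346-572645 on the plus strand. Each is written 5′ to 3′ along the gene.
CA9: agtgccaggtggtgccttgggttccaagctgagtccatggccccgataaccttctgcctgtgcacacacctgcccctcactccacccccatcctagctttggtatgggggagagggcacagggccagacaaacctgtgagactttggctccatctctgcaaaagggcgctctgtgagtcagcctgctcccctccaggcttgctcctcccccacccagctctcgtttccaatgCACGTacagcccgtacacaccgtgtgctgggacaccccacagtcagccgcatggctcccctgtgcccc
CA12: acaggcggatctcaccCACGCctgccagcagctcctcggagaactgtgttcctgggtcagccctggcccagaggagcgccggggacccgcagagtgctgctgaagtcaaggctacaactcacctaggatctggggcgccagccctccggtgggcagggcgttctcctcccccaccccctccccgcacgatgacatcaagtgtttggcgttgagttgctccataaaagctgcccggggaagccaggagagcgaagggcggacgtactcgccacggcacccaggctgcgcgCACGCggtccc
SLC16A3: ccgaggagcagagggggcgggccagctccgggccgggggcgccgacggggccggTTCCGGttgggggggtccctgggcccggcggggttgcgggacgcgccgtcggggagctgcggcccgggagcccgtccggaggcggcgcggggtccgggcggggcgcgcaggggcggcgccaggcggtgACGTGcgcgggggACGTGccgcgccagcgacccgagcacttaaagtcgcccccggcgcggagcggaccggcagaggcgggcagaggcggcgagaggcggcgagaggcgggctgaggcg
BSG: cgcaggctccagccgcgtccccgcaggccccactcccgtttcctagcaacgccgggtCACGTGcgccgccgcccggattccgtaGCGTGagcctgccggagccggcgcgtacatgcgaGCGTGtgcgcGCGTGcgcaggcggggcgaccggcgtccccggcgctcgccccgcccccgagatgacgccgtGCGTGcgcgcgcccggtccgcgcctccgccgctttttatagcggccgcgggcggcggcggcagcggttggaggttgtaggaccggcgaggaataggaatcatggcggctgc
The CA9 window holds 1 match, an ACGTG read on the opposite strand that begins 18 bases before the start. The SLC16A3 window holds 2 copies of ACGTG, which begin 68 and 55 bases before the start, and 1 CCGGAA read on the opposite strand. Another SLC16A3 window, at chr17:82234649-82234948, holds 3 copies of GCGTG. The CA12 window has no ACGTG and 2 copies of GCGTG, and the BSG window has ACGTG on both strands at 1 palindrome and 4 copies of GCGTG. The first SLC4A7 window, at chr3:27484335-27484634 on the minus strand, has 3 copies of GCGTG. Among 35116 RefSeq windows of this length, 21.4% hold ACGTG, 36.5% GCGTG, 48.4% at least 1 of these, and 17.2% CCGGAA, so a match describes the letters and does not mark a bound site.

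Libraries held 15824504 to 23896899 counts, and levels are in CPM, counts scaled by TMM to a common library total. Mitochondrially encoded genes took 2.65 to 4.47% of the counts and ribosomal protein genes 4.47 to 4.97%. Of the targeted genes, ETV1 averaged 139 CPM in knockout gels and 219 CPM in control gels, ETV4 65.03 and 96.7 CPM, and ETV5 116 and 114 CPM (adjusted p = 0.808), so that the transcripts of ETV1 and ETV4 were reduced in part and no reduction of ETV5 was detected. In monolayers ETV1 averaged 143 CPM in knockout cells and 202 CPM in control cells, ETV4 62.3 and 85.2 CPM, and ETV5 117 and 115 CPM. Vimentin, a defining gene of this mesenchymal-like line, reached 7407 CPM, while of 8 luminal markers the hormone receptor genes ESR1 and PGR had at most 2 counts in any library and the cadherin gene CDH1 at most 7. The other 5 luminal markers were detected, with a keratin gene, KRT19, by far the highest. The luminal sum was 445 to 463 CPM in knockout gels, 724 to 767 in control gels, 504 to 531 in knockout monolayers and 550.1 to 665 in control monolayers. KRT19 averaged 410 CPM in knockout gels and 704 CPM in control gels (log2 -0.78, adjusted p = 0.000205). Of the 5 tested luminal markers 2 fell and 1 rose there, beside 12.4% and 11.5% of all tested genes. GATA3 rose, at 12.6 CPM in knockout gels and 9.24 CPM in control gels. EPCAM (22.8 and 21.3 CPM) and FOXA1 (2.75 and 1.80 CPM) also averaged higher in knockout gels but did not pass. The summed level of 6 leukocyte markers was 2.92 to 3.12 CPM in knockout gels, 6.91 to 8.23 in control gels, 4.71 to 4.74 in knockout monolayers and 5.65 to 6.40 in control monolayers. Of these LYZ averaged 1.45 CPM in knockout gels and 6.03 CPM in control gels. Of 8 fibroblast markers, 6 had at most 6 counts in any library (COL1A1 and PDGFRB had more), and the fibroblast sum was 12.2 to 14.4 CPM in knockout gels, 13.5 to 13.8 in control gels, 24.4 to 25.3 in knockout monolayers and 19.0 in both control monolayers. Of 5 endothelial markers, VWF, CDH5 and TEK had at most 7 counts, while PECAM1 and KDR reached 186 and 116. The endothelial sum was 7.18 to 8.66 CPM in knockout gels, 11.2 in both control gels, 9.42 to 11.1 in knockout monolayers and 12.3 to 12.5 in control monolayers, and PECAM1 averaged 4.17 CPM in knockout gels and 7.25 CPM in control gels (log2 -0.79, adjusted p = 0.000543). The luminal, leukocyte and endothelial sums were, like CA9, lower in knockout than in control gels, the luminal sum mostly through KRT19. Their part in the results was not tested.

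The 6 genes differed widely in level. Per kilobase of annotated exon (GENCODE v29, all exons of a gene merged), BSG was highest at 187 to 234 CPM per kb and SLC16A3 followed at 50.5 to 73.4 CPM per kb, without overlap in any library. CA9 spanned 2.13 to 27.3 CPM per kb, SLC4A7 8.71 to 12.1 and CA12 2.75 to 7.29, so the place of CA9 among them depended on the group. CA9 was above SLC4A7 and CA12 in both control groups and in knockout monolayers, and below both in knockout gels. SLC16A1 was the lowest at 0.0103 to 0.0516 CPM per kb. Merged exons include ones that this line may not use, and which annotation the deposited counts used was not stated, so these levels per length are approximate.

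**Figure D1:**
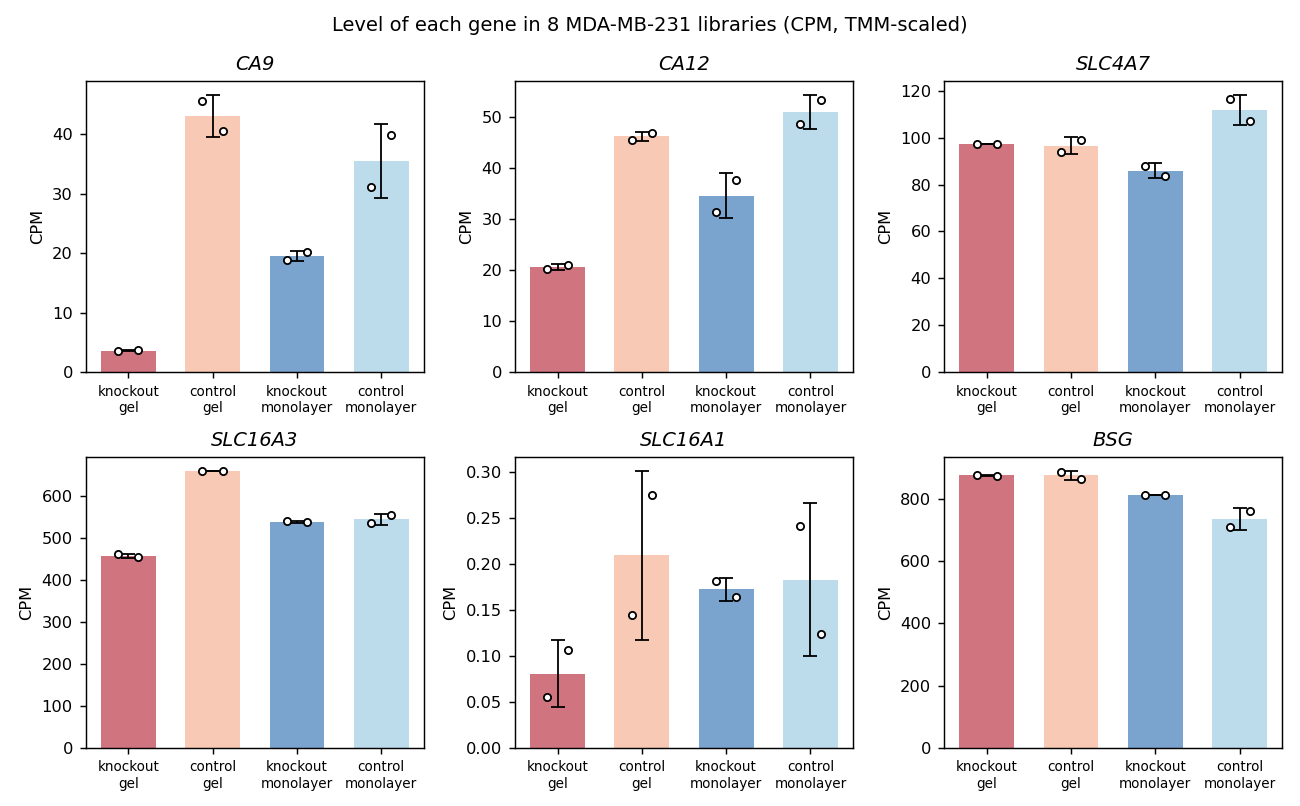
Level of each gene in CPM (vertical axes, each from 0) in knockout gels, control gels, knockout monolayers and control monolayers. Bars are means of 2 libraries, whiskers the SD and circles the libraries; CA9 was at 3.56 and 3.67 CPM in knockout gels, against 45.6 and 40.6 CPM in control gels.

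CA9 had its lowest level in knockout gels and differed more between groups than any other gene of the set that could be tested. It stood at 3.56 and 3.67 CPM in knockout gels and 45.6 and 40.6 CPM in control gels, and at 18.9 and 20.2 CPM in knockout monolayers and 31.2 and 40.0 CPM in control monolayers. The knockout libraries lay below the control libraries in each culture, and the knockout gels lay far below every other library. In gels, knockout cells held 8.39% of the CA9 transcripts of control cells, an 11.9-fold lower level (log2 -3.58 ± 0.13 SE). In monolayers they held 55.6% (log2 -0.85 ± 0.10 SE). Subtracting the monolayer effect of the knockout from its gel effect gave -2.73 on the log2 scale, the lowest value among 10879 genes with a mean of at least 5 CPM. The next genes in that order were PPFIA4 at -2.68 and IL1B at -2.29. Among all 15568 tested genes, which include ones with very few counts, CA9 was at place 16 from the bottom. The low level in knockout gels rests on 65 and 69 counts, for which 95% Poisson intervals, covering counting error only, ran from 2.75 to 4.54 and from 2.85 to 4.64 CPM.

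CA9 was much lower in gels than in monolayers in knockout cells, and slightly higher in gels in control cells. Knockout gels held 18.5% of the level of knockout monolayers (log2 -2.43 ± 0.15 SE). Control gels had a level 22.7% above that of control monolayers (log2 0.30 ± 0.091 SE). The difference in control cells is small beside the spread of the libraries, as the lower control gel had 40.6 CPM and the higher control monolayer 40.0 CPM. Without control monolayer 1 it was 0.10 on the log2 scale and without control monolayer 2 it was 0.47. In bulk libraries, fewer cells expressing a gene and less RNA per cell cannot be told apart. On GRCh38, CA9 lies on chromosome 9 (35673856 to 35681159, plus strand), and its start overlaps ARHGEF39 on the opposite strand. ARHGEF39 was at 18.6 and 14.2 CPM in knockout gels and 14.2 and 15.3 CPM in control gels, with overlapping groups. The strand setting of the counting was not stated, so reads of such partners may not be told apart.

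CA12, the other membrane-bound carbonic anhydrase of the set, fell with the knockout in both cultures. It was at 20.1 and 20.9 CPM in knockout gels and 45.5 and 46.7 CPM in control gels. In monolayers it was at 31.4 and 37.6 CPM in knockout cells and 48.6 and 53.3 CPM in control cells. The groups did not overlap in either culture, and knockout gels were the lowest of all. The change was -55.5% in gels (log2 -1.17 ± 0.084 SE, adjusted p = 3.52e-13, edgeR quasi-likelihood test) and -31.8% in monolayers (log2 -0.55 ± 0.078, adjusted p = 1.52e-06). Without a test, because the set was chosen on this contrast, the gel effect of the knockout less its monolayer effect was -0.61 on the log2 scale. CA12 was also lower in knockout gels than in knockout monolayers, a change of -40.7% (log2 -0.75 ± 0.087, adjusted p = 2.15e-08). In control cells its change from monolayers to gels of -0.14 (95% interval -0.29 to 0.01) did not pass, with adjusted p = 0.169, although the groups did not overlap. With counts scaled by library size alone that change was -0.22 and passed (adjusted p = 0.0241). CA12 lies on chromosome 15 (63321378 to 63382161, minus strand). Across the 8 libraries its log2 level had a Pearson correlation of 0.97 with CA9, given as a description of 4 groups of libraries and not as a test. Within a library, the count of CA9 was 0.177 and 0.175 times that of CA12 in knockout gels, 1.00 and 0.869 times in control gels, 0.602 and 0.536 times in knockout monolayers and 0.642 and 0.750 times in control monolayers.

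SLC16A3, the gene of the lactate exporter MCT4, fell with the knockout in gels and showed no detectable change in monolayers. It stood at 461 and 454 CPM in knockout gels and at 660 CPM in each control gel. In monolayers it was at 541 and 537 CPM in knockout cells and 535 and 554 CPM in control cells. The gel groups were far apart relative to their spread, whereas the monolayer groups overlapped. The change in gels was -30.7% (log2 -0.53 ± 0.044, adjusted p = 1.28e-11). In monolayers the log2 change of -0.01 had a 95% interval of -0.10 to 0.07 (adjusted p = 0.863), which is -6.93% to 5.28%. The gel effect less the monolayer effect was -0.51, given without a test.

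SLC16A3 also moved oppositely with culture in knockout and control cells. It was lower in knockout gels than in knockout monolayers (log2 -0.24 ± 0.044, adjusted p = 5.98e-05) and higher in control gels than in control monolayers (log2 0.28 ± 0.044, adjusted p = 9.44e-06). The fall in knockout cells was -0.10 after correction for transcript length and GC content and did not pass (adjusted p = 0.0624). SLC16A3 lies on chromosome 17 (82228397 to 82261129, plus strand), and its 3′ part overlaps the kinase gene CSNK1D on the opposite strand, which was at 172 and 152 CPM in knockout gels and 177 and 181 CPM in control gels (log2 -0.14, adjusted p = 0.0518). The knockout effect in gels and both changes with culture draw on the same gel libraries and are not independent.

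SLC16A1, the gene of MCT1, was barely detected in any library. It had 1 and 2 counts in knockout gels, 3 and 5 in control gels, 3 and 3 in knockout monolayers and 6 and 2 in control monolayers. These are 0.0548 to 0.274 CPM, and the gene did not pass the filter on low counts, so no change was tested. Its antisense partner SLC16A1-AS1 had at most 1 count in a library. SLC16A1 lies on chromosome 1 (112911847 to 112957013, minus strand).

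BSG, the gene of basigin, was the highest of the set, with all libraries between 711 and 887 CPM. It had 878 and 875 CPM in knockout gels and 887 and 865 CPM in control gels, and the groups overlapped. The log2 difference of 0.00 had a 95% interval of -0.09 to 0.09 (adjusted p = 0.998), which is -6.08% to 6.51%. In monolayers BSG was at 814 CPM in each knockout library and 711 and 760 CPM in the control libraries, a change of 10.7% (log2 0.15 ± 0.045, adjusted p = 0.0182). That call was lost without knockout monolayer 1 (adjusted p = 0.151), knockout monolayer 2 (0.104) or control monolayer 1 (0.295), and with a length and GC correction (0.436). BSG was higher in control gels than in control monolayers (log2 0.25 ± 0.045, adjusted p = 5.74e-05). In knockout cells its difference of 0.11 between gels and monolayers did not pass (adjusted p = 0.0589), but did without control monolayer 1 (0.0177) or control monolayer 2 (0.0351) and with the length and GC correction (0.00305). BSG lies on chromosome 19 (571277 to 583493, plus strand), and its first part overlaps an annotated antisense RNA. The count of SLC16A3 for each count of BSG was 0.525 and 0.519 in knockout gels, 0.744 and 0.763 in control gels, 0.664 and 0.660 in knockout monolayers and 0.752 and 0.729 in control monolayers.

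SLC4A7, the gene of the bicarbonate importer NBCn1, fell with the knockout in monolayers and showed no detectable change in gels. Like CA12, it had its highest level in control monolayers. It stood at 97.4 CPM in each knockout gel and 93.9 and 99.0 CPM in control gels, and these groups overlapped. In monolayers it was at 88.1 and 83.8 CPM in knockout cells and 116 and 107 CPM in control cells. The knockout change in gels was 0.01 on the log2 scale (95% interval -0.10 to 0.13, or -6.71% to 9.42%, adjusted p = 0.885). In monolayers SLC4A7 fell by 23.3% (log2 -0.38 ± 0.057, adjusted p = 4.28e-06). The gel effect less the monolayer effect was 0.40, of opposite sign to the values of CA9, CA12, SLC16A3 and BSG, the last being -0.15, all without a test. Gels were above monolayers in knockout cells (log2 0.18 ± 0.058, adjusted p = 0.0123) and below them in control cells (log2 -0.22 ± 0.056, adjusted p = 0.00385). The first of these calls was lost without knockout gel 2 (adjusted p = 0.0540) or knockout monolayer 2 (0.136) and with library size alone (0.125) or upper-quartile factors (0.0784). The second was lost without control gel 1 (0.120) or control monolayer 1 (0.0984). SLC4A7 lies on chromosome 3 (27372721 to 27484420, minus strand).

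**Figure D2:**
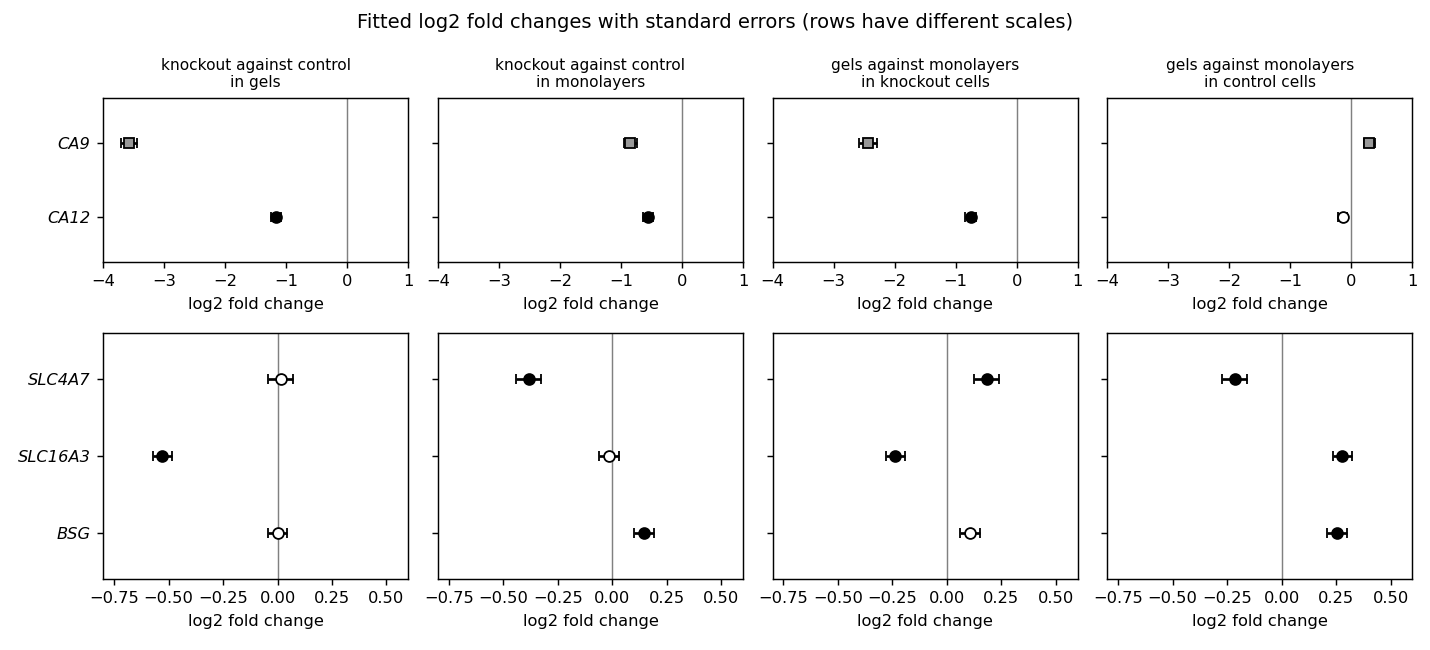
Log2 fold change (horizontal axes) of the 5 genes with enough counts in 4 comparisons, with bars of 1 SE. Filled circles passed an adjusted p of 0.05, open circles did not, and the grey squares of CA9 carry no test; the upper and lower rows have different scales. CA9, CA12 and SLC16A3 lay left of 0 in knockout against control gels, at -3.58, -1.17 and -0.53.

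Leaving CA9 aside, 4 genes of the set were tested. With the knockout in gels 2 of the 4 fell and none rose, where 12.4% of all tested genes fell, 11.5% rose and 23.9% changed in all. With the knockout in monolayers 2 fell and 1 rose, where 9.6% of all genes fell, 9.6% rose and 19.2% changed in all. From monolayers to gels, 2 fell and 1 rose in knockout cells, where 17.9% of all genes fell, 20.1% rose and 38% changed. In control cells 1 fell and 2 rose, where 10.7% of all genes fell, 16% rose and 26.7% changed. Groups of 2 libraries that do not overlap are common here, with 61.7% of all tested genes in knockout against control gels, 56.9% in monolayers, 67.6% for gels against monolayers in knockout cells and 64.4% in control cells. The 4 comparisons share libraries in pairs, so their values are not independent. With 4 genes these counts describe the set and support no statement about pH regulation as a whole.

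Other genes that handle acid were read from 7 lists with 91 genes, of which 62 had enough counts to be tested. With the knockout in gels 7 rose, 9 fell and 46 did not pass, a share of 25.8% that is close to the 23.9% of all tested genes. With the knockout in monolayers 11 rose and 3 fell, 22.6% against 19.2%. The median log2 changes of the 62 genes were 0.03 in gels and 0.10 in monolayers, beside -0.00 and 0.01 over all tested genes. The 16 calls in gels became 8 without control gel 2. The 14 calls in monolayers became 8 without knockout monolayer 1, 7 without knockout monolayer 2 and 6 without control monolayer 1.

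The enzymes that make lactate and gate pyruvate included large falls in knockout gels. LDHA, the lactate dehydrogenase subunit that favours lactate formation, averaged 1672 ± 35.1 CPM in knockout gels and 2566 ± 68.9 CPM in control gels (SD, n = 2 each; log2 -0.62, adjusted p = 1.77e-12). In monolayers it averaged 2212 ± 87.1 CPM in knockout cells and 2024 ± 114 CPM in control cells (log2 0.13, adjusted p = 0.0507), a change that passed without control monolayer 2 (0.00506). PDK1, a kinase that holds pyruvate back from oxidation in mitochondria, averaged 20.5 ± 0.746 CPM in knockout gels and 40.1 ± 2.99 CPM in control gels (log2 -0.97, adjusted p = 1.54e-11). Of 9 genes in this list 2 fell and 1 rose in gels, and 1 fell and 2 rose in monolayers, 33.3% called in each culture against 23.9% of all tested genes in gels and 19.2% in monolayers. The third call in gels was MPC2, a subunit of the mitochondrial pyruvate carrier (log2 0.29), which was lost without knockout gel 2 (adjusted p = 0.0574) or control gel 2 (0.0589). In monolayers the kinase PDK2 rose (log2 0.35, adjusted p = 0.00125). Calls on LDHB (log2 0.18) and PDK1 (log2 -0.29) in monolayers were lost without knockout monolayer 1 (adjusted p = 0.0945 and 0.0699), that on LDHB also without knockout monolayer 2 (0.0629) and control monolayer 1 (0.218), and that on PDK1 without control monolayer 2 (0.0653). With the length and GC correction the PDK1 change in monolayers was -0.097 and did not pass (adjusted p = 0.443).

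The other carbonic anhydrase genes numbered 13, of which 9 had too few counts to be tested, with at most 7 in a library. None of the other 4 passed with the knockout, where 23.9% of all tested genes passed in gels and 19.2% in monolayers. With 4 genes this count supports no statement about the family. The cytosolic CA13 had the highest mean of the remaining 4, at 14.6 ± 1.15 CPM in knockout gels and 12.5 ± 0.343 CPM in control gels (SD, n = 2 each; log2 0.22, adjusted p = 0.148). In monolayers it was at 10.6 ± 1.14 CPM in knockout cells and 13.0 ± 0.426 CPM in control cells (log2 -0.30, adjusted p = 0.0716). The rest of the list, CA2, CA5B and CA11, had adjusted p values of 0.290, 0.108 and 0.141 in gels. Of 4 tested lactate transporters and chaperones other than the set, 1 passed in gels, 25% against 23.9% of all tested genes. None passed in monolayers, where 19.2% of all tested genes did. The gene that passed in gels was EMB, which encodes embigin, a relative of basigin that chaperones MCT2 (log2 0.20, adjusted p = 0.0306). The EMB call was lost without knockout gel 2 (adjusted p = 0.179), control gel 1 (0.103) or control gel 2 (0.194), and with DESeq2 (0.0779). NPTN, which encodes the basigin relative neuroplastin, had log2 changes of -0.05 in gels and -0.00 in monolayers, with adjusted p = 0.523 and 0.969.

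A few membrane transporters for bicarbonate or protons fell in knockout gels, while most genes of these 2 lists did not pass. Of 9 other bicarbonate transporters and their regulators 3 fell in knockout gels, 33.3% called against 23.9% of all tested genes (12.4% lower), and 1 rose and 1 fell in monolayers, 22.2% against 19.2%. SLC4A8, a sodium-driven exchanger, averaged 3.01 ± 0.927 CPM in knockout gels and 5.88 ± 0.171 CPM in control gels (SD, n = 2 each; log2 -0.96, adjusted p = 0.000414). The exchangers SLC4A3 (log2 -0.86, adjusted p = 0.00232) and SLC26A6 (log2 -0.28, adjusted p = 0.0067) fell too, but SLC4A3 did not pass without control gel 2 (0.0577), nor SLC26A6 without knockout gel 2 (0.0915) or control gel 2 (0.122). Of 9 sodium-proton exchangers and cofactors 2 fell in gels, 22.2% against the same 23.9%. SLC9A7, an exchanger of the Golgi, changed by -0.43 (adjusted p = 0.000313), and SLC9A8 by -0.22 (adjusted p = 0.0286), which did not pass without any 1 of the 4 gel libraries (adjusted p 0.0712 to 0.221). It was lost also with no filter on low counts (0.0628), with DESeq2 (0.138) and, at -0.14, with the length and GC correction (0.141). The most abundant genes of these lists, AHCYL1 and CHP1, had adjusted p = 0.603 and 0.0901 in gels and 0.155 and 0.584 in monolayers. The calls on SLC4A2 (log2 0.15) and SLC4A8 (log2 -0.63) in monolayers had adjusted p = 0.0327 and 0.0222 and were lost without knockout monolayer 1 (0.226 and 0.0785) or knockout monolayer 2 (0.0785 and 0.138). That on SLC4A2 was lost also without control monolayer 2 (0.188), control gel 1 (0.0565) or control gel 2 (0.0557), and that on SLC4A8 without control monolayer 1 (0.372). SLC4A2 also did not pass with no filter on low counts (0.0935), with DESeq2 (0.0735) or in a fit of 2 groups only (0.0864), nor SLC4A8 with DESeq2 (0.136) or the length and GC correction (0.0876).

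Subunits of the V-ATPase, the pump that acidifies lysosomes, were read next. Of 22 tested subunits 5 rose and 1 fell with the knockout in gels, 27.3% called against 23.9% of all tested genes (11.5% higher). In monolayers 6 rose and 1 fell, 31.8% against 19.2% (9.6% higher). ATP6V0B averaged 131 ± 2.14 CPM in knockout gels and 104 ± 1.46 CPM in control gels (SD, n = 2 each; log2 0.33, adjusted p = 6.86e-06), and 110 ± 1.78 CPM in knockout monolayers and 86.7 ± 1.35 CPM in control monolayers (log2 0.34, adjusted p = 1.29e-05). ATP6V0D1 changed by 0.24 in gels and 0.46 in monolayers (adjusted p = 0.00131 and 1.37e-07), and ATP6V0E1 by 0.34 in monolayers (adjusted p = 8.02e-05). ATP6V0A1 was the subunit that fell in gels (log2 -0.30, adjusted p = 0.000503). The most abundant subunit, ATP6V1C1, had changes of 0.01 and -0.01 (adjusted p = 0.890 and 0.935). Of 5 acid sensors and proton channels 1 fell in gels, 20% against 23.9% of all tested genes. In monolayers 1 rose, 20% against 19.2%. The gene that fell was the acid-sensing channel gene ASIC1, at 3.70 ± 0.111 CPM in knockout gels and 6.81 ± 0.533 CPM in control gels (SD, n = 2 each; log2 -0.88, adjusted p = 0.000143). PACC1, a proton-activated chloride channel, had log2 changes of 0.05 and -0.01 (adjusted p = 0.794 and 0.959).

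**Figure D3:**
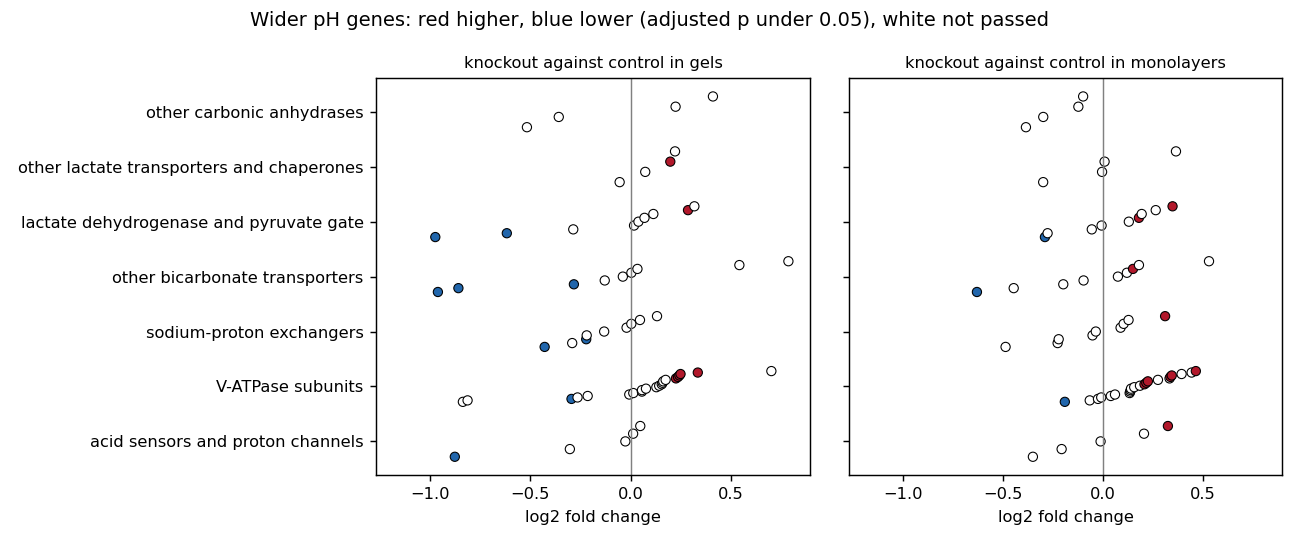
Log2 fold change (horizontal axes) of 62 further genes that handle acid, by list, for knockout against control in gels (left) and in monolayers (right). Each circle is a gene, red where higher and blue where lower at an adjusted p under 0.05, white where not passed; in gels 7 rose and 9 fell.

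Culture moved some of these genes too. From monolayers to gels 9 of the 62 rose and 11 fell in knockout cells, 32.3% against 38% of all tested genes, and 11 rose and 7 fell in control cells, 29% against 26.7%. The 18 calls in control cells became 9 without control gel 1 and 11 without control gel 2 or control monolayer 1. LDHA moved oppositely, by -0.40 in knockout cells and 0.34 in control cells (adjusted p = 2.44e-08 and 1.03e-06). In knockout cells PDK1 fell (log2 -0.51), as did SLC26A6 (log2 -0.59), SLC9A7 (log2 -0.54), ASIC1 (log2 -0.87) and ASIC3 (log2 -1.02), while SLC16A7, the gene of MCT2, rose (log2 0.50), CA13 (log2 0.46) rose, and so did ATP6V0E2, ATP6V0A2 and ATP6V0B (log2 0.43, 0.32 and 0.26). In control cells SLC9A8 and NHERF1 rose (log2 0.41 and 0.31), as did SLC4A2 (log2 0.26), ATP6V0D1 and ATP6V0B (log2 0.29 and 0.26). The genes named with these values passed under every alternative in that comparison. In the difference between the knockout effects of the cultures, 5 of the 62 passed (8.06% against 6.6% of all tested genes). Of the 5, 1 was higher and 4 lower, beside 2.67% and 3.94% of all genes. Without any 1 of 6 libraries, all but knockout gel 1 and knockout monolayer 2, the 5 calls became 2 or 3. LDHA (log2 -0.75, adjusted p = 1.01e-09) and PDK1 (log2 -0.68, adjusted p = 0.000107) did so under every alternative.

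Genes with the pattern most like CA9 were sought among 10712 genes with a mean of at least 5 CPM, leaving out the 6 genes themselves and symbols of clones, LOC entries and LINC transcripts, by the Pearson correlation of log2 CPM over the 8 libraries. The 5 highest were C4orf3, PAM, PLAT, SCD and DYNC2I1, with correlations of 0.990 to 0.995. PAM encodes an enzyme that amidates peptides, PLAT the tissue plasminogen activator, SCD the desaturase of fatty acids and DYNC2I1 a dynein subunit. Each had its lowest level in knockout gels. PLAT was at 147 and 145 CPM in knockout gels, 395 and 384 CPM in control gels, 250 and 275 CPM in knockout monolayers and 355 and 392 CPM in control monolayers. The size of the swing differed, with a knockout change in gels of -62.5% for PLAT and -35.3% for PAM, beside -91.6% for CA9. The closest genes were SATB1, INSIG2 and RHBDF2 for CA12, DBN1, STC1 and PFKL for SLC16A3, CNP, ARHGAP1 and C15orf39 for BSG, and USP24, ATXN7 and USP32 for SLC4A7, with correlations of 0.965 to 0.997. These values rest on 8 libraries in 4 groups and describe how alike the group levels were ordered and spaced.

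**Figure D4:**
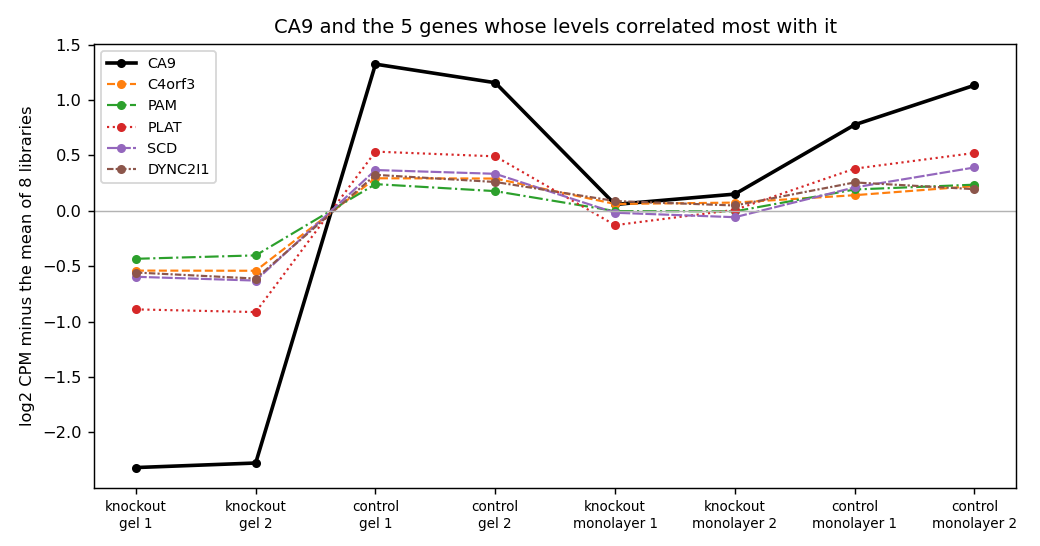
Log2 CPM of CA9 and the 5 genes most correlated with it, each minus its mean over the 8 libraries (vertical axis), by library (horizontal axis). All 6 lines were lowest in knockout gels, and CA9 had the widest range.

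Genes known to respond to low oxygen and to cell dissociation were read beside these results. Of 10 low-oxygen genes, among them PDK1, 7 fell and 1 rose with the knockout in gels, and 3 fell and 2 rose in monolayers. Over all tested genes 12.4% fell and 11.5% rose in gels, and 9.6% fell and 9.6% rose in monolayers. Their summed level was 1108 to 1120 CPM in knockout gels, 1982 to 2040 in control gels, 1571 to 1630 in knockout monolayers and 1594 to 1782 in control monolayers, so it was lowest and highest in the same groups as CA9 and SLC16A3. Of examples chosen after their values were seen, NDRG1 fell by 2.60 and BNIP3 by 1.47 on the log2 scale in gels (adjusted p = 9.94e-11 and 4.55e-22), whereas VEGFA had a change of 0.02 (adjusted p = 0.818) and ADM rose (log2 0.40, adjusted p = 1.43e-05). Of 10 genes of the dissociation and heat response, the summed level was 2229 to 2357 CPM in knockout gels, 2486 to 2550 in control gels, 1053 to 1095 in knockout monolayers and 1030 to 1048 in control monolayers. The sum was higher in gels than in monolayers, and in gels it was lower in knockout than in control cells. From monolayers to gels 6 of the 10 rose and 2 fell in knockout cells, beside 20.1% and 17.9% of all tested genes. In control cells 7 rose and 1 fell, beside 16% and 10.7%. In knockout cells FOS averaged 9.59 CPM in monolayers and 652 CPM in gels, whereas the heat genes HSPA1A (26.9 and 16.6 CPM) and HSPA1B (113 and 84.8 CPM) fell. The part of the low-oxygen or the dissociation genes in the results was not tested.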

How the data were processed

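The authors deposited whole-number raw counts per gene symbol for each library. According to the submitters' processing notes, FastQC 0.11.9, STAR 2.7.9a, featureCounts and R 4.1.1 were used with build hg38. Annotation, strand setting and featureCounts version were not stated.

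From these counts, genes passing filterByExpr (minimum count 10; 15568 of 61228) were scaled by TMM and fitted with edgeR 4.0.16 in R 4.3.3, as 4 group means over all 8 libraries, with the robust quasi-likelihood F-test and 4 residual degrees of freedom. Borrowing spread from other genes raised these to 34.3 for CA12, SLC16A3, BSG and SLC4A7, so their p-values and intervals rest largely on shared spread. Two-sided p-values were adjusted after Benjamini and Hochberg across the 15568 genes (threshold 0.05). The fit was also run on simulated counts, with spread taken from these data and changes placed in knockout gels only. That run cannot show whether the spread between libraries of a group is technical. Log2 CPM used a prior count of 2. The members and lists were chosen with earlier results of these data known. In each list, the text names tested genes with the smallest adjusted p (up to 3 a comparison) and the gene with the highest mean CPM; where calls change with culture are given, it names those that passed under every alternative. Some items that this rule would name are not reported here. Low-oxygen, dissociation and marker genes serve as context. Alternatives were other scalings, no filter, DESeq2 1.42.0, a replicate block, a fit of 2 groups only, leaving out each library and, added after seeing the data, a correction for length and GC content (mgcv 1.9.3; values for 86.3% of tested genes). Replicates of a group differed by more than counting error (chi-squared divided by its degrees of freedom, 2.54 to 6.31), and no library was counted as a duplicate.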

Additional observations from a re-analysis of the deposited data

Results flagged for a closer look

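For CA9 both knockout gels lay below both knockout monolayers, and both control gels lay above both control monolayers. In control cells the margin was narrow, with 40.6 CPM in the lower gel and 40.0 CPM in the higher monolayer. The gel effect of the knockout on CA9 less its monolayer effect was -2.73 on the log2 scale. SLC16A3 had the same opposite directions, with a difference of -0.51, and SLC4A7 had them the other way round, with a difference of 0.40. These 3 differences were not tested, because the genes were chosen on this contrast. Among the other genes that handle acid, the knockout effect differed between the cultures by edgeR's test for LDHA (log2 -0.75, adjusted p = 1.01e-09), PDK1 (log2 -0.68, adjusted p = 0.000107), CA13 (log2 0.52, adjusted p = 0.0440), SLC26A6 (log2 -0.36, adjusted p = 0.0354) and SLC9A8 (log2 -0.35, adjusted p = 0.0453). The calls on CA13, SLC26A6 and SLC9A8 passed in 8, 7 and 2 of 15 alternatives each, with adjusted p up to 0.183, 0.332 and 0.194.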

How the results depend on the processing

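Each log2 change of the 5 tested members was recomputed under up to 16 alternatives. Of these 395 recomputed values, 351 kept their direction and their side of the threshold, or stayed close. The counts of called genes were recomputed too but are not among the 395 values, and they shifted in several alternatives, as given below. In knockout against control gels the calls on CA12 and SLC16A3, and in monolayers those on CA12 and SLC4A7, held in every alternative. With DESeq2's Wald test 2479 genes were called for the knockout in gels, 1835 in monolayers, 2431 for gels against monolayers in control cells and 678 for the difference between knockout effects, against 3721, 2989, 4158 and 1028 with edgeR. Of the 62 further genes it called 8 in monolayers, 8 for control cells and 3 for the difference, and 3 were called for the difference also with library size alone and with the length and GC correction.

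For the knockout in gels the log2 change of BSG was -0.015 with upper-quartile factors and -0.0086 in a fit of 2 groups only, and that of SLC4A7 was -0.00020 with upper-quartile factors; these lie around 0. In monolayers BSG had 0.13 with no filter on low counts (adjusted p = 0.0585), 0.054 with the length and GC correction (0.436) and 0.14 with 2 groups only (0.0778), none passing. For gels against monolayers in knockout cells, BSG passed at 0.16 with the length and GC correction and SLC16A3 did not at -0.10, SLC4A7 did not pass at 0.11 with library size alone and 0.13 with upper-quartile factors, and CA9 was -2.50 and -2.49 under those scalings. In control cells CA12 passed at -0.22 with library size alone. With the length and GC correction, the differences between knockout effects were -0.0024 for BSG, -0.35 for SLC16A3 and 0.30 for SLC4A7. The cause of these shifts was not tested.

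Leaving out 1 library at a time, the genes called for the knockout ranged from 2106 to 3914 in gels and from 1848 to 3224 in monolayers, for gels against monolayers in control cells from 2144 to 4501, and for the difference from 413 to 1334. They fell by more than 1.5 times in gels without knockout gel 2 (2258), control gel 1 (2106) or control gel 2 (2160), in monolayers without knockout monolayer 1 (1848) or control monolayer 1 (1872), and in control cells without control gel 1 (2144), control gel 2 (2667) or control monolayer 1 (2359). For the difference they did so without knockout gel 2 (623), control gel 1 (413), control gel 2 (627), knockout monolayer 1 (623) or control monolayer 1 (662). The calls among the 62 genes ranged from 8 to 22, from 6 to 18, from 9 to 19 and from 2 to 5 in these comparisons. The log2 changes of CA9 ranged from -3.65 to -3.49 in gels, from -1.04 to -0.67 in monolayers, from 0.10 to 0.47 for control gels against control monolayers and from -2.91 to -2.52 for the difference. For that difference CA12 ranged from -0.71 to -0.48, SLC16A3 from -0.55 to -0.46, BSG from -0.20 to -0.071 and SLC4A7 from 0.35 to 0.46. In gels BSG ranged from -0.017 to 0.019 and SLC4A7 from -0.023 to 0.053, and in monolayers BSG ranged from 0.087 to 0.20 and SLC16A3 from -0.052 to 0.013. For gels against monolayers SLC4A7 ranged from 0.14 to 0.23 in knockout cells and from -0.27 to -0.17 in control cells, and BSG from 0.10 to 0.12 in knockout cells.

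4 genes near 0, chosen as the most abundant of their lists, changed sign. ATP6V1C1 had -0.0020 in gels with upper-quartile factors, and 0.036 in monolayers and -0.011 for the difference with the length and GC correction. For gels against monolayers in knockout cells NPTN had -0.037 with library size alone, -0.024 with upper-quartile factors and -0.0094 with the length and GC correction, and PACC1 had -0.045 with library size alone and -0.031 with upper-quartile factors. In control cells NPTN had -0.0054 with library size alone. Without single libraries ATP6V1C1 ranged from -0.035 to 0.075 in gels, -0.037 to 0.0063 in monolayers and -0.028 to 0.098 for the difference. NPTN ranged from -0.13 to 0.027 in gels, -0.031 to 0.011 in monolayers, -0.038 to 0.11 for culture in knockout cells and -0.12 to 0.046 for the difference. PACC1 ranged from -0.12 to 0.22, -0.16 to 0.11, -0.023 to 0.077 and -0.10 to 0.23 in the same comparisons, and from -0.21 to 0.13 for culture in control cells. CHP1 ranged from -0.14 to 0.021 in monolayers, -0.092 to 0.076 for culture in control cells and -0.16 to 0.024 for the difference.

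Groups share replicate numbers, but equal numbers did not deviate together (correlations of -0.06 to 0.08). With the replicate number as a replicate block, the change of LDHA in monolayers passed (log2 0.13, adjusted p = 0.0417), and CHP1 for culture in control cells was 0.0001966 on the log2 scale. The depth of 65 and 69 counts limits CA9 in knockout gels, and SLC16A1 lies below what these libraries can compare.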
